A study of Mus musculus with 16 samples.

Results

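The livers of 5 conventional mice inoculated with the caecal microbiota of lean donors (Conv + LM) were compared with those of 6 conventional mice that carried no transplanted microbiota (Conv + PBS), 11 of the 16 mice of the series. The members were taken by their labels, and all 11 arrays were used. Every mouse was a male C57BL/6 animal kept on normal chow (NC), never treated with antibiotics, 6 weeks old at the first gavage and 10 weeks old in the labels. Conv + LM mice were gavaged with caecal content of NC-fed lean donors suspended in reduced PBS, once a week for 2 weeks. In the labels the controls are mice without a transplant, and by the methods they were gavaged with the reduced PBS alone. The remaining 5 mice, Conv + OM(HFD), received the caecal content of donors made obese with a high-fat diet. They entered the filter on dim probes and the estimate of the spread, and are otherwise used only where a gene is set against them directly. The recipients kept their own gut bacteria, so the comparison concerns a microbiota added to an existing one. The inoculum came from pooled donors, and the sources used here do not say which recipients shared a cage. A p below therefore measures the spread between mice, and cage and inoculum cannot be told apart from the group. The liver was read as a whole, so that fewer cells of a type and less RNA per cell cannot be told apart.

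The liver receives the blood of the gut through the portal vein, and with it bacterial products, bile acids returning from the ileum, and sugars and short-chain fatty acids made by fermentation. Resident macrophages (Kupffer cells) and sinusoidal endothelium meet that blood first, and hepatocytes answer with bile acid synthesis, xenobiotic metabolism, acute phase proteins and the switching of sugar and fat metabolism. Heat shock proteins are chaperones that fold and protect other proteins. Their genes are driven by heat shock factor 1 (HSF1), and in the liver their transcripts also follow a daily rhythm with body temperature and feeding.

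Each array read the RNA of 1 mouse. A level is the log2 brightness of a gene's probe minus the 75th percentile of that array, so a value of 0 is the brightness of that percentile and a step of 1 is a doubling. A difference is the mean of Conv + LM mice minus that of Conv + PBS mice on this log2 scale. The 75th percentile of brightness was 238.5 to 318.6 in Conv + LM and 223.1 to 323.7 in Conv + PBS mice, and no spot was saturated. The first principal component of the 11 arrays held 19.8% of the variance, of which the group accounted for 1.18% and the slide for 3.23%. All 10 hepatocyte markers were well above background on every array, with a mean level of 8.42 to 8.70 in Conv + LM and 8.36 to 8.73 in Conv + PBS mice. Conv + PBS mouse 1 stood apart, at 3.07 for the mean of 12 Kupffer cell markers against 0.79 to 1.44 in the other 5 Conv + PBS mice and 0.53 to 1.19 in Conv + LM mice. It was also the highest for neutrophil markers, at 0.91 against −1.90 to −1.31 in the other Conv + PBS mice. Results that rest on it are given below with and without this mouse.

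Over the whole table the lean microbiota went with small differences, none of which passed the correction for the number of genes. In limma, 806 of 20404 genes (3.95%) had an unadjusted p under 0.05, 351 of them higher (1.72%) and 455 lower (2.23%) in Conv + LM mice, while that threshold alone would let through 1020 genes if none differed. After Benjamini-Hochberg adjustment limma left 0 genes (0.0%), with a smallest adjusted p of 0.997, and the methods' t-test, which gave 759 genes unadjusted, also left 0. The size of the 806 differences had a median of 0.37, was under 0.5 for 568 and over 1 for 49. The levels of both groups did not overlap for 57 genes (0.279%), 28 higher (0.137%) and 29 lower (0.142%). Complete separation in a given direction arises in 1 of the 462 ways to place the Conv + LM mice, a proportion of 0.00216. Both shares lay below that proportion, so these counts do not exceed what would arise if no gene differed. A lack of overlap in a gene named below is therefore a description. The split between higher and lower genes depended on the scaling. With each array scaled on its median, 448 were higher and 166 lower, and with the authors' log2 values 417 and 322. The median difference over all genes was −0.01, or 0.045 with scaling on the median, and 54.1% of all genes were lower. With scaling on the median 12900 of the 20404 genes were higher and 7504 lower. List counts under that scaling are to be read beside these. Of 50 passing genes chosen by the rules for naming, 19 no longer did with scaling on the median, among them Hspa1b, Stip1, Gys2, Gbe1, Khk, G6pdx, Me1, Insig1, Cyp2a5, Tiparp, Cdh5, Fos, Atf4, Pcna, Kif20a, Psmd12, Ndufb5 and Kif3a. In what follows, "passed" means an unadjusted limma p under 0.05, and each adjusted p for Conv + LM against Conv + PBS was 0.997 unless given.

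Among the 880 measured genes of 49 lists of liver pathways and cell types, 25 passed (2.84%), 4 higher and 21 lower, and 31 of the lists held no such gene. The list with the most was that of cytosolic heat shock proteins and chaperones. All 18 of its genes were well above background on all 11 arrays. Of these, 17 were lower in Conv + LM mice and 4 passed, namely Hspa1a, Hspa1b, Hspb1 and Stip1, with 0 passing in the other direction. The median difference of the list was −0.22, against −0.01 over all genes. In background, 2.23% of all genes passed as lower. Many calls of list genes rested on single mice. In the 11 fits that each left out 1 mouse, the call was lost in 8 for Hspa1b and Gbe1, in 7 for Hspa1a, Atf4, Mmp8 and Psmd12, in 6 for Stip1, Khk, Kif20a and Fos, in 5 for Bhmt2, and in 3 for Hspb1, Cdh5 and Ndufb5. It was also lost for Tlr5 without Conv + LM mouse 13 or 17, for Pcna without mouse 13, and for Gys2 and G6pdx without mouse 15.

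Short stretches of promoter are shown for 4 of these genes, because all 4 hold the inverted repeat GAANNTTC, the core of the element that HSF1 binds. They were read from RefSeq promoters of the build GRCm38.p6, which run from 250 bases before to 50 bases after the start of the gene, and capitals mark the repeat. Hspa1a and Hspa1b are neighbouring, nearly identical genes of the inducible 70-kDa chaperone. Hspb1 encodes the small heat shock protein HSP27, and Dnaja1 a J-domain co-chaperone that brings substrates to the 70-kDa chaperones.
Hspa1a, chr17:34972223-34972290, minus strand: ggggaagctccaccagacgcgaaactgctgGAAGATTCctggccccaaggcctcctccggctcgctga
Hspa1b, chr17:34959305-34959372, minus strand: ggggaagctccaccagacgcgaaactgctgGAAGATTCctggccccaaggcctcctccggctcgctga
Hspb1, chr5:135887772-135887859, plus strand: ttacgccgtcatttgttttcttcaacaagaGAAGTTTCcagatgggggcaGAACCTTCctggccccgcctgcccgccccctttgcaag
Dnaja1, chr4:40722314-40722381, plus strand: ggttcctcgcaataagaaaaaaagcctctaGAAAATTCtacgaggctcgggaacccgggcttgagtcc
The repeat began 104 bases before the start in both Hspa1a and Hspa1b, whose promoters were identical at 296 of 300 positions. In Hspb1 it occurred 2 times within the stretch shown, the first 117 bases before the start, and in Dnaja1 it began 124 bases before the start. Of the 18 listed genes, 14 had a promoter in the table, and 10 of these held GAANNTTC. By promoter, as a gene can have several, it was 11 of 19. It occurred in 2582 of all 32851 promoters (7.86%). The same element read in the other phase, TTCNNGAA, which can overlap the first, was found in 5 of the 19 promoters, of 4 genes, and in 8.52% of all promoters. Each motif is its own reverse complement, so a single search covers both strands. Stip1 held neither. A match in these letters is a description and not a measurement of binding.

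Hspa1a, read by a probe on chromosome 17 from 35106766 to 35106825 (mm9), was at −1.69, −0.50, 0.17, −0.43 and 0.35 in the Conv + LM mice and at −0.44 (lowest), 0.80 (median) and 1.10 (highest) in the Conv + PBS mice. All 5 Conv + LM mice lay below the Conv + PBS median, and the groups overlapped through Conv + PBS mouse 1, which was the lowest of its group. The difference was −1.04 ± 0.46 (SE), or 2.06-fold lower, with an exact two-sided permutation p of 0.0260 and a limma p of 0.0372. Hspa1b was at 0.34, 1.09, 1.78, 0.87 and 1.76 in Conv + LM mice, against 0.66 (lowest), 2.40 (median) and 2.49 (highest) in Conv + PBS mice. Here too the lowest Conv + PBS value was that of mouse 1, and the other 5 lay between 1.82 and 2.49, above every Conv + LM mouse. The difference was −0.87 ± 0.40 (SE), with an exact permutation p of 0.0671 and a limma p of 0.0445, and −1.14 without mouse 1. As the transcripts are nearly identical, their probes may read each other's RNA, and both genes are better taken as 1 observation.

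Hspb1, read on chromosome 5 from 136365366 to 136365425 (mm9), was at 3.64, 2.87, 3.68, 3.55 and 4.11 in Conv + LM mice and at 3.73 (lowest), 4.30 (median) and 4.85 (highest) in Conv + PBS mice. Of the Conv + LM mice, 4 lay below every Conv + PBS mouse. The difference was −0.76 ± 0.30 (SE), with an exact permutation p of 0.0281 and a limma p of 0.0223. Stip1 encodes HOP, the adaptor that hands proteins from the 70-kDa to the 90-kDa chaperones, and it was at 1.48, 1.37, 1.60, 1.44 and 1.82 in Conv + LM mice against 1.54 (lowest), 1.79 (median) and 2.15 (highest) in Conv + PBS mice. The groups overlapped, with 1 Conv + LM mouse above the Conv + PBS median. The difference was −0.29 ± 0.13 (SE), with an exact permutation p of 0.0584 and a limma p of 0.0377, and a second, dimmer probe of Stip1 gave 0.03.

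**Figure D1:**
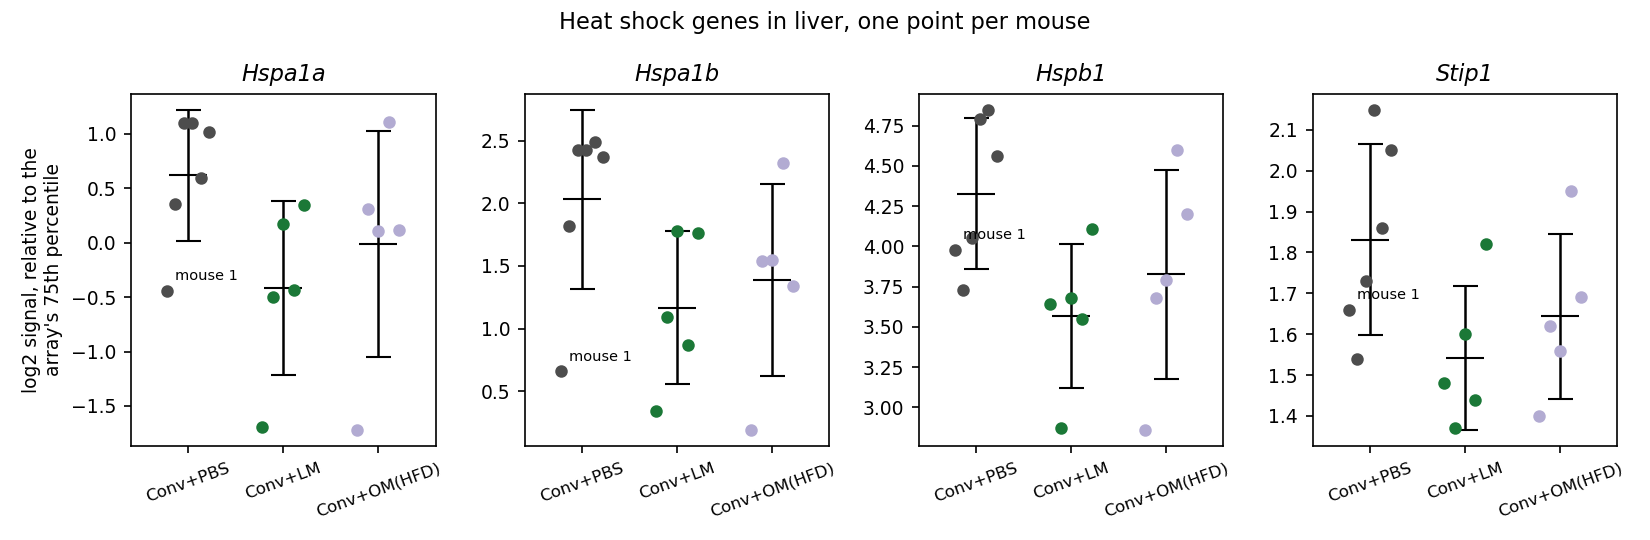
Levels of Hspa1a, Hspa1b, Hspb1 and Stip1 in each mouse, as log2 signal relative to the array's 75th percentile. Points are mice, the horizontal mark is the group mean and the bar 1 SD (5 Conv+LM mice, 6 Conv+PBS mice and, for reference, 5 Conv+OM(HFD) mice). In Hspa1b the 5 Conv+LM mice sit between 0.34 and 1.78, below the Conv+PBS mice other than mouse 1.

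The other 14 members did not pass. The difference was −0.51 for Hsph1 (a nucleotide exchange factor of the 70-kDa chaperones), −0.35 for the co-chaperone Dnajb1, −0.33 for Hsp90aa1 (the inducible 90-kDa chaperone), −0.25 for Dnaja1 and −0.21 for the constitutive chaperone Hspa8, none of which passed in limma. Without Conv + PBS mouse 1 Dnajb1 passed, at −0.48, as did Hsph1, Hsp90aa1 and Dnaja1. The mitochondrial chaperones Hspd1 and Hspe1 were at −0.09 and −0.12, the lens crystallin Cryab at −0.02 and Hspa4 at 0.07. The count rested on single mice in both directions. Without Conv + PBS mouse 1 it was 9 of 18 lower (2.73% of all genes lower in that fit), with a median of −0.32. It was 0 without Conv + PBS mouse 4, without Conv + PBS mouse 5 or without Conv + LM mouse 14, 1 without Conv + PBS mouse 6 or without Conv + LM mouse 13 or 16, and 2 without Conv + PBS mouse 3. Leaving out any 1 mouse, 15 to 17 of the 18 genes stayed lower, with a median between −0.32 and −0.12. Within slide 1 the median difference was −0.35 and within slide 2 −0.12, and scaling on the array median gave −0.16, with 2 genes passing.

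The level of the list also varied with that of a clock gene among these mice. Arntl (BMAL1), the clock activator, ranged from −3.28 to −0.24 in Conv + LM and from −2.89 to −0.35 in Conv + PBS mice, a difference between the group means of 0.12 (exact permutation p = 0.872). The clock output gene Dbp ran from 4.01 to 6.02 and from 4.24 to 6.17, with a difference of −0.05. The mean of the 18 heat shock genes was 3.62, 3.87, 4.10, 3.78 and 4.30 in Conv + LM mice 13 to 17, and 3.74, 4.04, 4.27, 4.47, 4.45 and 4.47 in Conv + PBS mice 1 to 6. Across the 11 mice it correlated with Arntl (Pearson's r = 0.734, permutation p = 0.0127; Spearman's rho = 0.773, permutation p = 0.0073), a relation chosen after the values were seen and the only one computed. Without the 2 mice farthest from the median of Arntl (Conv + PBS mouse 2 and Conv + LM mouse 13) r was 0.678. Within slide 2 r was 0.784 over 6 mice (exact permutation p = 0.0556), and within the Conv + PBS mice 0.886 (exact permutation p = 0.0222). Slide 1 held 5 of these mice, and no correlation was computed over fewer than 6.

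With the Arntl level as a covariate, an analysis added after the data were seen, the differences hardly moved and the standard errors were smaller for 16 of the 18 genes, the exceptions being Cryab and Hspa4. Hspa1a was then at −1.11 ± 0.32 (SE), Hspb1 at −0.80 ± 0.23, Hsph1 at −0.57 ± 0.17, Dnaja1 at −0.27 ± 0.08 and Stip1 at −0.30 ± 0.09. In that fit 9 of the 18 genes passed as lower, where 3.24% of all genes did, and the median was −0.25. As Arntl was taken after it was seen to vary with these same genes, their smaller standard errors partly follow from that choice. The higher count is therefore a description and adds no support. The smallest adjusted p over all genes was 0.234, so again 0 genes passed the correction. The hour at which each liver was taken is not given in the sources used here.

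**Figure D2:**
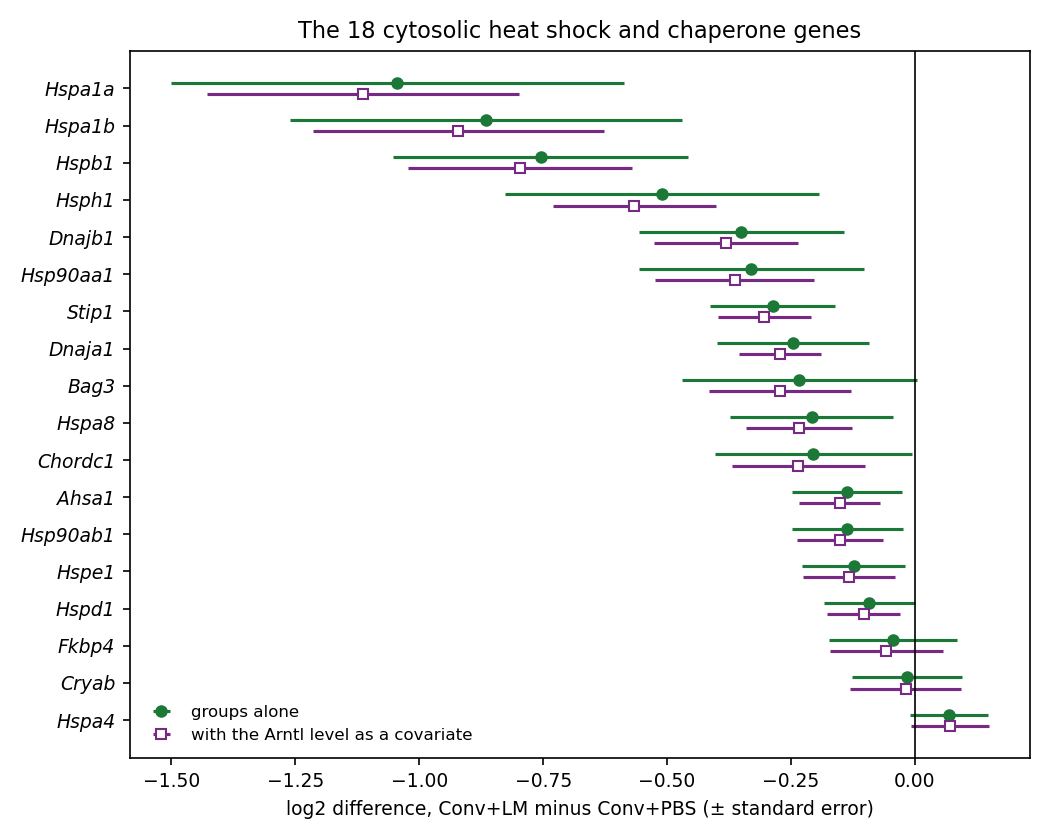
Difference in log2 signal between Conv+LM and Conv+PBS mice for the 18 heat shock and chaperone genes, with standard errors from limma, for the groups alone (filled circles) and with the Arntl level as a covariate (open squares). Of the 18 genes, 17 lie below 0, and the bars are shorter with the covariate for Hsph1 and Dnaja1.

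**Figure D3:**
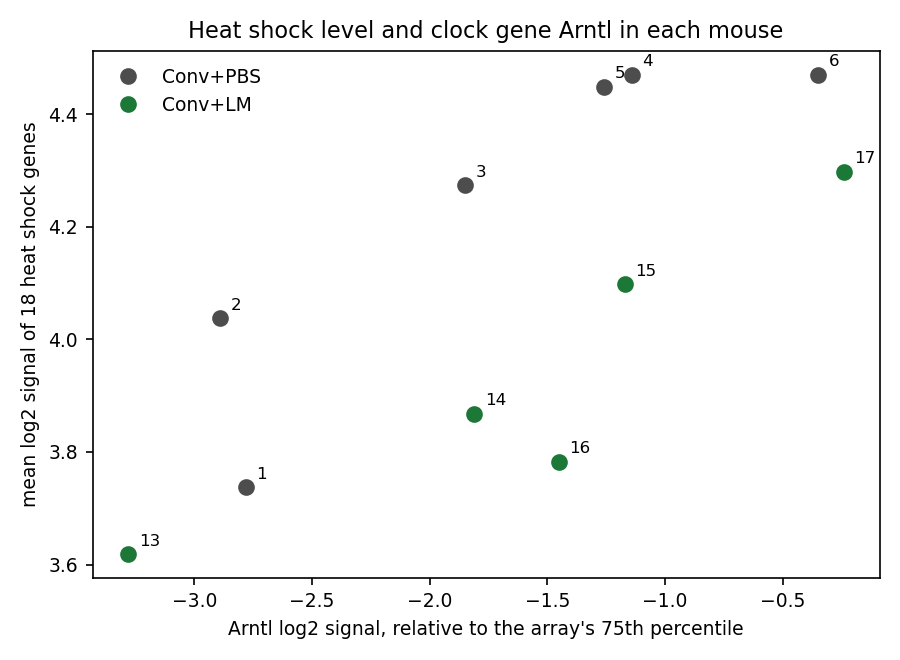
Mean log2 signal of the 18 heat shock genes against the log2 signal of Arntl, 1 point per mouse, numbered as in the labels. Both groups spread along the Arntl axis, from −3.28 to −0.24 in Conv+LM and from −2.89 to −0.35 in Conv+PBS mice, and the 3 highest means, from 4.45 to 4.47, are those of Conv+PBS mice 4, 5 and 6.

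None of the 4 genes passed between Conv + LM and Conv + OM(HFD) mice. The differences there (Conv + LM minus Conv + OM(HFD)) were −0.41 for Hspa1a, −0.22 for Hspa1b, −0.26 for Hspb1 and −0.10 for Stip1 (exact permutation p = 0.508, 0.603, 0.460 and 0.413). Conv + OM(HFD) mice minus the same Conv + PBS mice gave −0.64, −0.65, −0.50 and −0.18.

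Of the whole table, the 12 genes with the smallest p among those higher in Conv + LM mice, and the 12 among those lower, were taken from genes with a RefSeq name that were well above background on all 11 arrays. The groups did not overlap for 6 of the higher genes and 5 of the lower ones, in a choice made by the p of this contrast.

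Dph1, an enzyme of diphthamide synthesis on elongation factor 2, had the smallest p of all higher genes named. It was at 0.55, 0.66, 0.37, 0.44 and 0.60 in Conv + LM mice and at 0.00 (lowest), 0.15 (median) and 0.34 (highest) in Conv + PBS mice. Every Conv + LM mouse was above every Conv + PBS mouse. The difference was 0.37 ± 0.08 (SE), with an exact permutation p of 0.00433 and a limma p of 0.000283, and it stayed under an unadjusted p of 0.05 in every alternative run, with 0.44 within slide 1 and 0.32 within slide 2. Ctu2, which takes part in the thiolation of transfer RNA, was at 2.58, 2.64, 2.62, 2.49 and 2.65 against 2.14 (lowest), 2.31 (median) and 2.47 (highest), with no overlap and a difference of 0.27. Elp6, a subunit of the Elongator complex, had a difference of 0.40 with overlapping groups.

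Acox2, the peroxisomal oxidase that shortens the side chain of bile acid precursors and oxidizes branched fatty acids, was at 5.97, 6.26, 6.37, 5.93 and 6.02 in Conv + LM mice, against 5.42 (lowest), 5.66 (median) and 5.92 (highest) in Conv + PBS mice. The groups just failed to overlap, and both probes of the gene were higher, by 0.45 and 0.68. The SE of the brighter was 0.13, with an exact permutation p of 0.00433 and a limma p of 0.00306. Snapc4, a subunit of the complex that starts transcription of small nuclear RNA genes, was at 1.68 ± 0.14 (SD, n = 5) against 1.39 ± 0.06 (SD, n = 6), with no overlap. Elmo3, a scaffold of cell movement and engulfment, was at 2.87 ± 0.09 against 2.59 ± 0.08 (SD, same mice), with no overlap and with 3 of 3 probes higher. The largest difference of the 12 was that of Prok1 (prokineticin 1, a secreted peptide), at −0.06, 0.25, −0.30, −0.82 and 0.07 against −1.66 (lowest), −1.36 (median) and −0.22 (highest). The groups overlapped, and the difference was 1.01 ± 0.29 (SE), with an exact permutation p of 0.0152 and a limma p of 0.00325. The other higher genes were the transporter Slc12a9 (0.42), the Mediator subunit Med24 (0.35), Fhad1 (0.35) and the gene models Gm3893 (0.51, no overlap) and Gm13298 (0.50).

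Among the lower genes Pgap1, which trims the lipid anchor of GPI-linked proteins, had the smallest p. It was at −1.35, −1.25, −1.27, −1.16 and −1.31 in Conv + LM mice against −1.10 (lowest), −0.85 (median) and −0.83 (highest) in Conv + PBS mice, with no overlap. The difference was −0.34 ± 0.08 (SE), with an exact permutation p of 0.00433 and a limma p of 0.000946, but a dimmer probe of the gene gave 0.02. Plcxd1, a phospholipase-like protein, was at −1.34, −1.25, −2.02, −1.54 and −2.34 against −1.17 (lowest), −1.05 (median) and −0.73 (highest), again with no overlap, and both its probes were lower (−0.69 and −0.71). Ccsap (−0.35) and Kif3a (−0.23), proteins of cilia and microtubules, and the amine oxidase relative Doxl2 (−0.55) also did not overlap.

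The lipid transporter Abca9 was at −3.29, −2.27, −2.80, −3.42 and −3.01 in Conv + LM mice, against −2.63 (lowest), −2.09 (median) and −1.96 (highest) in Conv + PBS mice. The groups overlapped through Conv + LM mouse 14, which lay above Conv + PBS mice 1 and 3, and the difference was −0.78 ± 0.21 (SE), with an exact permutation p of 0.0108 and a limma p of 0.00181. Slc5a6, the transporter of the vitamins biotin and pantothenate, which gut bacteria also make, was at 1.34 ± 0.21 (SD, n = 5) against 1.78 ± 0.27 (SD, n = 6), a difference of −0.44. The rest were the glutathione transferase Gstt2 (−0.51), the lactosylceramide synthase B4galt5 (−0.47), the stress regulator Nfe2l3 (−0.46), Fam126a (−0.37) and the gene model Gm35287 (−0.99). For Nfe2l3 a dimmer probe pointed the other way, at 0.52, and for Gstt2 the second probe gave −0.06.

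**Figure D4:**
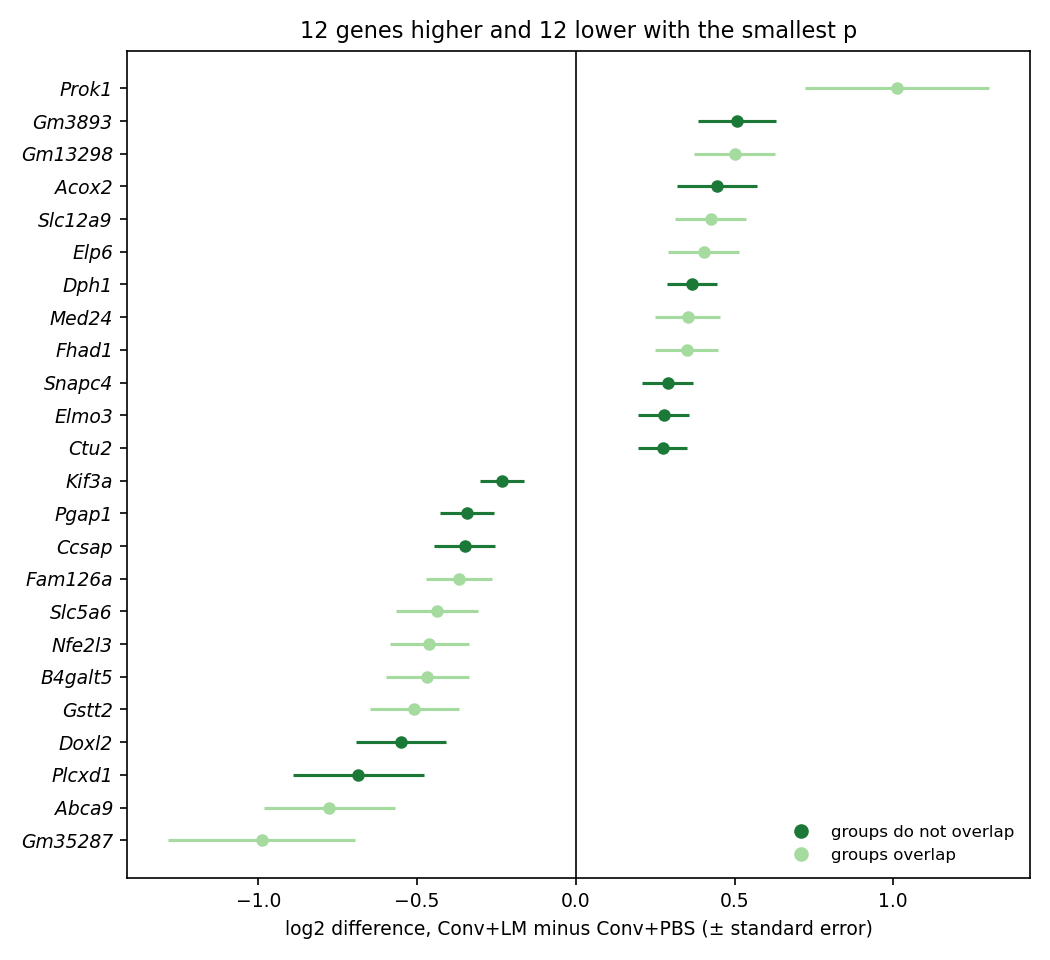
Difference in log2 signal between Conv+LM and Conv+PBS mice, with the standard error from limma, for the 12 higher and 12 lower genes of the smallest p. Dark points are genes whose groups do not overlap, and Prok1 at 1.01 and Gm35287 at −0.99 lie at the ends.

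The lists of sugar and fat metabolism held few genes that passed, all of them lower in this fit. In the list of glucose uptake, glycolysis and glycogen, 12 of 17 genes were lower and 3 passed, with a median of −0.10, where 54.1% of all genes were lower and 2.23% passed as lower. Gys2, the liver glycogen synthase, was at 6.79, 6.88, 6.62, 6.93 and 6.71 in Conv + LM mice, against 6.78 (lowest), 7.05 (median) and 7.07 (highest) in Conv + PBS mice. The groups overlapped through Conv + PBS mouse 1, and the other 5 Conv + PBS mice, from 6.99 to 7.07, were above every Conv + LM mouse. The difference was −0.21 ± 0.08 (SE), with an exact permutation p of 0.0195 and a limma p of 0.0183, and −0.26 without mouse 1. Gbe1, the glycogen branching enzyme, was at 4.25, 4.30, 4.76, 4.15 and 4.27 against 4.48 (lowest), 4.78 (median) and 4.83 (highest). Conv + LM mouse 15 was the one that overlapped, the difference was −0.35, and 3 of 3 probes were lower. Khk, the first enzyme of fructose use, differed by −0.26 (−0.06 within slide 1 and −0.40 within slide 2). The count of 3 was 1 to 4 when 1 mouse was left out, being 1 without Conv + PBS mouse 2, 4 or 5 or Conv + LM mouse 15 or 16, and 0 with scaling on the array median. With quantile normalization, and with the authors' values, 1 passed as higher and 1 as lower. The median of the list was −0.04 with scaling on the array median, with 11 of 17 lower. It was −0.03 without Conv + LM mouse 17, with 10 of 17 lower. All 7 measured genes of gluconeogenesis failed to pass, with 2 higher, and Pck1 and G6pc differed by 0.13 and −0.02 (exact permutation p = 0.357 and 0.896).

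In the lipogenesis list, 19 of 26 genes were lower and 2 passed, both sources of NADPH, against the same shares over all genes. With scaling on the array median 13 of the 26 were lower and 0 passed, and within slide 1 the list turned, with 9 lower and a median of 0.06. The first gene of the pentose phosphate pathway, G6pdx, was at −0.34, −0.58, −0.70, −0.53 and −0.49 against −0.39 (lowest), −0.26 (median) and 0.62 (highest). Conv + PBS mouse 1 was the highest, and without it the difference moved from −0.44 (exact permutation p = 0.0195) to −0.30 (p = 0.0238) and still passed. Me1, the malic enzyme, differed by −0.43 and was lower by both probes. The synthase Fasn (−0.14) and its regulator Srebf1 (0.29) did not pass, each with an SD over 0.6 in both groups. In cholesterol synthesis 20 of 24 genes were lower and 2 passed, with a median of −0.08, where 54.1% of all genes were lower and 2.23% passed as lower. With scaling on the array median 14 of the 24 were lower and 0 passed, with a median of −0.03. Insig1, the sensor that holds the sterol regulators back, was at 0.87, 0.65, 0.52, 0.96 and 0.87 against 0.87 (lowest), 1.10 (median) and 1.30 (highest), and the difference was −0.31 (exact permutation p = 0.0238).

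Of 25 genes of bile acid synthesis, conjugation and transport, 12 were higher and 1 passed, as higher. Of all 20404 genes 9370 were higher, and 1.72% passed as higher. Hsd3b7, an early enzyme of the pathway that acts on the sterol ring, was at 6.61, 6.30, 6.91, 6.22 and 6.47 in Conv + LM mice against 5.79 (lowest), 6.19 (median) and 6.29 (highest) in Conv + PBS mice. All 5 Conv + LM mice were above the Conv + PBS median and 4 were above every Conv + PBS mouse. The difference was 0.39 ± 0.13 (SE), with an exact permutation p of 0.0130 and a limma p of 0.00816. Against Conv + OM(HFD) mice it was 0.29, which passed in limma before adjustment (adjusted p = 1.0; exact permutation p = 0.0794). Cyp7a1, the rate-limiting enzyme, and Cyp8b1, which makes cholic acid, differed by 0.37 and 0.39 (exact permutation p = 0.470 and 0.219), and their SDs reached 0.93 and 0.52. A second probe of Cyp7a1 pointed the other way, at −0.23.

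In 3 lists of xenobiotic genes 1 gene each passed, as lower, where 2.23% of all genes did. In the list of P450 enzymes and nuclear receptor targets 15 of 21 were lower (14 with scaling on the array median), with a median of −0.12, and Cyp2a5 (coumarin hydroxylase) passed at −0.22. Its levels were 8.12, 8.17, 8.36, 8.04 and 8.05 against 8.25 (lowest), 8.36 (median) and 8.48 (highest), and 4 of the 5 Conv + LM mice were below all Conv + PBS mice. In phase II conjugation Gstt2, given above, was the gene that passed of 32, of which 22 were lower, or 16 with scaling on the array median. Of 8 targets of the aryl hydrocarbon receptor, which also binds bacterial tryptophan products, Tiparp passed as lower, by −0.28, while 5 of the 8 were lower, or 4 with scaling on the array median. Cyp1a1, the usual marker of that receptor, was well above background on 3 of 6 Conv + PBS and 3 of 5 Conv + LM arrays and differed by −0.20 (exact permutation p = 0.673).

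Sensors of bacteria and the inflammatory genes gave 1 gene that passed, as higher, where 1.72% of all genes did. Tlr5, the receptor of flagellin, was at −0.37, −1.54, −1.04, −1.34 and −0.66 in Conv + LM mice against −2.18 (lowest), −1.59 (median) and −1.14 (highest) in Conv + PBS mice. All 5 Conv + LM mice lay above the Conv + PBS median and the groups overlapped. The difference was 0.64 ± 0.24 (SE), with an exact permutation p of 0.0411 and a limma p of 0.0193, with both probes higher, and 0.74 without Conv + PBS mouse 1. The other 30 measured genes of the list did not pass. Tlr4, the receptor of lipopolysaccharide, differed by −0.17 (exact permutation p = 0.132), and Nod2, a sensor of peptidoglycan, was not well above background on any of the 16 arrays. None of 28 acute phase genes, 33 genes of the type I interferon response, 27 interferon-gamma GTPases and MHC genes or 19 cytokines and chemokines passed. Saa1 differed by 0.12, Lcn2 by −0.32, Il1b by −0.11 and Tnf by 0.55 (exact permutation p = 0.117). Without Conv + PBS mouse 1 Lcn2 and Il1b turned, to 0.07 and 0.44, Saa1 was at 0.47 and Tnf at 0.56, and none passed. The median of the cytokine and chemokine list went from −0.13 to 0.01. The list of interferon-gamma GTPases and MHC turned from a median of −0.13, with 21 of 27 lower, to 0.08, with 19 of 27 higher, when Conv + PBS mouse 1 was left out.

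Cell type markers were read in 15 lists, and some of their medians, given here, moved when Conv + PBS mouse 1 was left out. All 12 Kupffer cell genes were lower in Conv + LM mice, none passed, and the median was −0.48, which became −0.21, still with 12 of 12 lower, without Conv + PBS mouse 1. Marco, a scavenger receptor of these cells, was at 0.17, 1.81, 1.43, 0.49 and 2.22 against 1.03 (lowest), 2.01 (median) and 5.32 (highest). Clec4f, which marks Kupffer cells, was at 2.48 to 2.87 against 2.55 (lowest), 2.95 (median) and 4.37 (highest), with a difference of −0.40 and of −0.15 without mouse 1. In neutrophils 9 of 9 genes were lower, with a median of −0.55, and without mouse 1 it was 6 of 9 with −0.02. Mmp8, a neutrophil collagenase, passed (−1.23, exact permutation p = 0.0281) and no longer did without that mouse (−1.03, p = 0.0556). It was well above background on 2 of 5 Conv + LM and 6 of 6 Conv + PBS arrays. B cell markers had a median of 0.13 over 7 genes with none passing, and 4 of the 7 were well above background on all 11 arrays. The median was 0.04 with normexp background correction and 0.10 with the authors' values. Without mouse 1 it was 0.39 with 2 passing as higher, where 337 of all 20404 genes passed as higher. The dendritic cell and MHC class II list turned from a median of −0.06, with 6 of 11 lower, to 0.28, with 8 of 11 higher, without that mouse. The granule genes S100a8, S100a9 and Camp were at 1.73, 3.85 and 1.56 in mouse 1, and at most at −3.23, −1.44 and −1.53 in the other Conv + PBS mice. Cdh5, the cadherin of endothelial junctions, passed at −0.31 (exact permutation p = 0.0216) and did not pass in limma without mouse 1 (−0.20, exact permutation p = 0.0317). Markers of adipose tissue had a median of 0.64 over 4 genes, of −0.40 within slide 1 and 1.62 within slide 2, and 1 of the 4 was well above background on all 11 arrays. Their part in the results above was not tested.

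**Figure D5:**
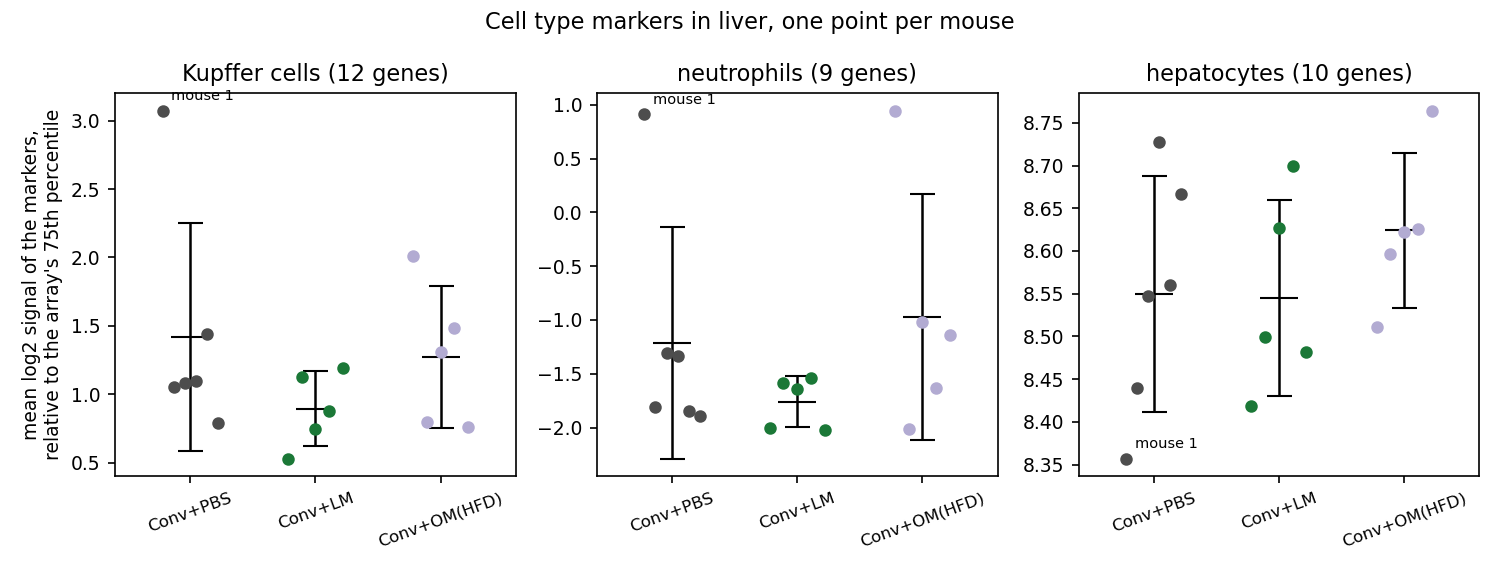
Mean log2 signal of 12 Kupffer cell, 9 neutrophil and 10 hepatocyte markers in each mouse, relative to the array's 75th percentile. Points are mice, the mark is the group mean and the bar 1 SD. Conv+PBS mouse 1, at 3.07 and 0.91, sits far above the other Conv+PBS mice for the first pair of lists and is the lowest for hepatocyte markers.

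Few other stress and housekeeping genes passed, where 3.95% of all genes did in either direction. Fos, an immediate early gene, was at −3.93, −3.22, −3.74, −3.01 and −2.89 against −3.59 (lowest), −2.56 (median) and −0.20 (highest), and its difference of −0.99 passed in limma (exact permutation p = 0.0693) and, at −0.56, did not without Conv + PBS mouse 1 (exact permutation p = 0.111). Atf4, the regulator of the integrated stress response, passed at −0.19 (exact permutation p = 0.0498) as the only one of 28 genes of that list, and its dimmer probe gave −0.03. Without Conv + PBS mouse 1 it was at −0.17 and did not pass. The replication clamp Pcna was at 2.76, 2.83, 2.92, 3.02 and 2.87 against 3.02 (lowest), 3.13 (median) and 3.25 (highest). These groups did not overlap, the difference was −0.24 (exact permutation p = 0.00216), and it was −0.28 within slide 1 and −0.24 within slide 2. Kif20a, a kinesin of cell division, passed at −0.29 and, at the same value, did not pass without Conv + PBS mouse 1. The other 23 measured genes of the cell cycle list did not pass.

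The proteasome lid subunit Psmd12 was at 5.04, 5.03, 5.22, 5.07 and 5.14 against 4.80 (lowest), 4.97 (median) and 5.01 (highest), with no overlap and a difference of 0.15 (exact permutation p = 0.00216). It was the one of 31 proteasome genes to pass, where 1.72% of all genes passed as higher. Of the 31, 24 were higher, with a median of 0.05, where 9370 of all 20404 genes were higher. With scaling on the array median all 31 were higher, with a median of 0.11, beside 0.045 over all genes. Without Conv + PBS mouse 1 the difference of Psmd12 was 0.16 and fell just short of passing. Bhmt2, which makes methionine, differed by 0.22 (exact permutation p = 0.00866). It differed by 0.16 and did not pass in limma (exact permutation p = 0.0238) without Conv + PBS mouse 1, the lowest of its group at 4.81. In the urea cycle and amino acid catabolism, 29 of 35 genes were higher and none passed, where 9370 of all 20404 genes were higher. The median of the list was 0.04. It was 0.10 with scaling on the array median, beside 0.045 over all genes, and 0.02 without Conv + LM mouse 14. Of 51 genes of the respiratory chain 42 were lower, with a median of −0.05 that became 0.00 with scaling on the array median, and Ndufb5 passed (−0.33), being at 6.93 in Conv + PBS mouse 2 and between 5.88 and 6.16 in the other 5 Conv + PBS mice. The difference of Ndufb5 was −0.18 without mouse 2, where it still passed, and −0.13 within slide 2, and the call was lost without Conv + LM mouse 13, 14 or 16. Of the 51 genes, 49 were lower and 4 passed without Conv + PBS mouse 1, with a median of −0.09, where 2.73% of all genes passed as lower. None of 59 ribosomal protein genes passed, and their median was −0.02. With scaling on the array median it was 0.04, with 52 of 59 higher. All genes had a median of 0.045 under that scaling, with 12900 of 20404 higher.

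Set directly against the Conv + OM(HFD) mice, Conv + LM mice had 553 genes (2.71%) at an unadjusted limma p under 0.05, and 0 after adjustment. This contrast shares the Conv + LM mice with the one that chose the genes above, so their values here are a description. Elp6 was higher in Conv + LM mice by 0.32 (exact permutation p = 0.0317). Abca9 (−0.63, exact permutation p = 0.0476), Nfe2l3 (−0.30, p = 0.0556) and Pgap1 (−0.22, p = 0.0317) were lower. Their levels in Conv + OM(HFD) mice had medians of −1.87, −2.34, −2.39 and −1.05, next to −1.92, −2.09, −2.27 and −0.85 in Conv + PBS mice. Dph1 and Acox2, with differences of 0.13 and 0.20 from Conv + OM(HFD) mice, did not pass there (exact permutation p = 0.0714 and 0.175).

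At the ends of the range stood dim transcripts. The gene model Gm36101 was not well above background in any Conv + LM mouse and was so in 5 of 6 Conv + PBS mice. It was higher in the latter, with an approximate lower bound of 2.98-fold (limma adjusted p = 0.997). As it met the filter through the groups where it is high and was picked as an end of the range, this is a description. Conv + PBS mouse 5 was the brightest, at 0.27, and without it the bound was 1.86-fold. This bound sets the mean of the Conv + PBS mice against the mean, in the Conv + LM mice, of the lowest signal that counts as above background on each array. The Conv + PBS mean includes the mouse whose array was not well above background, so the bound is approximate. Gm12718 was well above background in 5 of 5 Conv + LM and 2 of 6 Conv + PBS mice, and was at −3.23, −2.72, −2.32, −3.31 and −3.31 against −6.82 (lowest), −4.54 (median) and −2.73 (highest). The exact permutation p was 0.0563, and the limma call was lost in 5 of the 11 fits that each left out 1 mouse.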

How the data were processed

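Liver RNA of 16 mice was hybridized to 1-colour Agilent SurePrint G3 mouse arrays on 2 slides, with 3 Conv + PBS and 2 Conv + LM mice on slide 1 and 3 of each on slide 2. The deposited intensity values, extracted by the authors with Agilent Feature Extraction 10.10.1.1, were background-corrected, and no normalization across arrays had been made. The authors also deposited log2 values, which match the log2 median brightness of each spot after quantiles had been equalized, and these served as an alternative. Gene names and probe positions (mm9) are those of the array.

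From the intensity values, control and outlier spots were left out, spots of a probe were averaged, and values were put on a log2 scale relative to the 75th percentile of their array. A probe was kept if at least 5 of 16 arrays had it well above background, and the brightest stood for a gene. In the names, 14635 genes matched a RefSeq symbol (GRCm38.p6), 694 a synonym and 5075 neither. Groups were compared in a single fit of all 3 groups (limma 3.58.1, R 4.3.3), with Benjamini-Hochberg adjustment over 20404 genes. The exact permutation tests are two-sided and run over 462 ways to place 5 of 11 mice, with a smallest p of 0.00216. Without Conv + PBS mouse 1, or against Conv + OM(HFD) mice, they run over 252 ways, with a smallest p of 0.00794. The correlation across 11 mice used 100000 permutations. Collation and plots used Python 3.11.15, pandas 2.3.3 and matplotlib 3.10.9. The fit was tested on simulated data. The number of arrays limits the precision of every value.

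Named genes are the 12 of smallest p in each direction with a RefSeq name and above background on all 11 arrays, list genes with an unadjusted p under 0.05, a set of fixed genes of gut-liver interest, the ends of the range, and, as examples of lists, 17 genes taken after their values were seen. A few of these genes are not reported here. The members and lists were chosen with earlier results of these data known. Alternatives were the background correction, normalization, scaling, filter, probe choice, slide as a block, each slide alone, array weights, variance trend, the methods' t-test and leaving out each mouse. Keeping outlier spots and the Arntl covariate were added after the data were seen.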

Additional observations from a re-analysis of the deposited data

Results flagged for a closer look

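In each group of 5 or 6 mice, the gap between the most extreme mouse and its nearest neighbour was divided by the range of the group and set against Dixon's 95% critical value, 0.71 for 5 mice and 0.625 for 6. Of 266 groups tested, over the named genes and the list means, 33 had a mouse beyond it. The groups included example genes taken after their values were seen, and lists that hold them. The count is therefore a description and cannot be set against chance. Conv + PBS mouse 1 was that mouse 23 times, 17 as the highest and 6 as the lowest. The number in brackets after each name is this gap over the range.

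Conv + PBS mouse 1 was the highest of its group for the genes Cdh5 (0.729), Fos (0.641), Il1b (0.764), Clec4f (0.72), Marco (0.688), Cd5l (0.695), Csf1r (0.881), S100a8 (0.787), S100a9 (0.81), Camp (0.795). It was the highest for the list means of antimicrobial and mucosal defence (0.726), bacterial sensing (0.827), cytokines and chemokines (0.675), interferon-gamma GTPases and MHC (0.649), Kupffer cells and macrophages (0.716), dendritic cells and MHC class II (0.737), neutrophils (0.79). It was the lowest for the genes Fhad1 (0.745), Bhmt2 (0.721), Gys2 (0.705), Hspa1b (0.631), Dnajb1 (0.655), and for the list mean of glycolysis, glucose uptake and glycogen (0.671). For Fos the mouse was at −0.20 and the others between −3.59 and −2.37, and for Il1b at −0.28 against −4.12 to −3.21. The Kupffer cell, neutrophil, interferon-gamma and cytokine lists were high together in this mouse while Hspa1b, Dnajb1 and Gys2 were low. Without it the difference between the groups was −1.14 for Hspa1b, −0.48 for Dnajb1 and −0.26 for Gys2. What set this liver apart was not tested.

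Gm13298 was highest in Conv + PBS mouse 6, at −1.09 against −1.67 to −1.49 in the rest of its group (0.693). Gbe1 was highest in Conv + LM mouse 15, at 4.76 against 4.15 to 4.30 in the rest of its group (0.758). Ndufb5 was highest in Conv + PBS mouse 2, at 6.93 against 5.88 to 6.16 in the rest of its group (0.731). Psmd12 was lowest in Conv + PBS mouse 4, at 4.80 against 4.95 to 5.01 in the rest of its group (0.745). S100a8 was highest in Conv + LM mouse 16, at −3.06 against −4.30 to −4.01 in the rest of its group (0.766). The mean of the complement and coagulation list was lowest in Conv + LM mouse 13, at 5.58 against 5.78 to 5.85 in the rest of its group (0.727). The mean of the growth hormone and IGF axis list was highest in Conv + LM mouse 17, at 5.14 against 4.65 to 4.73 in the rest of its group (0.841). The mean of the periportal hepatocytes list was highest in Conv + LM mouse 14, at 5.97 against 5.44 to 5.59 in the rest of its group (0.726). The mean of the red blood cells list was highest in Conv + LM mouse 16, at 4.35 against 2.44 to 2.93 in the rest of its group (0.746). The mean of the metallothioneins and glucocorticoid targets list was lowest in Conv + LM mouse 13, at 3.17 against 3.98 to 4.21 in the rest of its group (0.779).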

How the results depend on the processing

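Over 29 alternatives, limma or the methods' t-test left 0 genes after adjustment each time, with a smallest adjusted p of 0.157 without Conv + LM mouse 17. Counts of genes at an unadjusted p under 0.05 moved with the settings, and where no reason is given the cause was not tested. The total was 1220 with the Arntl covariate, whose construction removes variance along that gene, and 695 to 1024 when 1 mouse was left out. Higher genes were 544 with every probe counted (30664 tested), 558 with the Arntl covariate and 257 to 464 when 1 mouse was left out. Lower genes were 255 with normexp background correction, 166 with scaling on the median, 819 without the filter (37074 tested) and 356 to 560 when 1 mouse was left out. The share of higher genes among those passing was 43.5%, 54.9% with normexp, 53.7% with quantile normalization, 73.0% with scaling on the median, 56.4% with the authors' values and 29.5% without the filter. Genes without overlap were 35 with normexp and 89 to 152 when 1 mouse was left out. The methods' t-test gave 759 genes, of which 533 were shared with limma, and 0 after Benjamini-Hochberg adjustment. With the slide as a block 991 genes passed, 743 of them shared. The 50 named genes that passed were refitted 1397 times in all, with 1161 passing in the same direction, 235 not passing and 1 reversed, namely Nfe2l3, at 0.031 with the mean of all its probes. Dph1 and Gm3893 passed each time. Gm36101 also did, but it met the filter through the groups where it is high and its Conv + LM values are below background, so its count is no measure of stability. No paired analysis was possible because no mouse number occurs in more than 1 group.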
